A study of Mus musculus with 6 samples.

Results

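The genes described here are 40 interferon-stimulated effector genes, followed in bulk RNA sequencing of mouse retinas with oxygen-induced retinopathy (OIR). The list was fixed by name, but it was chosen with earlier results of these data known. Of the 40, 38 matched a row of the deposited table by their Ensembl gene ID, and all 38 passed the filter of at least 10 counts over the 6 libraries, which left 20021 of the 32285 genes of the table for testing. No row was matched to Mx1 or Mx2, and both were not analysed here. The comparison asked whether chronic intermittent hypoxia (CIH), the repeated drop in oxygen that marks sleep apnea, altered these genes in retinas that had already been through OIR.

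All retinas were from C57BL/6J wild-type pups that breathed 75% oxygen for 5 days from postnatal day (PN) 8 to PN13, the phase in which retinal capillaries are lost. The OIR-CIH group (n = 3) was then exposed to CIH for 10 h a day, as 266 cycles of 135 s that moved between 20.95% and 5% oxygen, until collection at PN18. The OIR-Norm group (n = 3) was kept in room air with the same gas flow and noise and was also collected at PN18. The groups therefore share the hyperoxia, and no retina without OIR entered the comparison. Libraries were made from 250 ng of total RNA of whole retina and held 26289905 to 38010151 counts each. All 14 listed markers of retinal cells passed the count filter. Each library held at least 9197 counts of Xist and at least 1460 summed counts of Y-linked genes, that is, RNA typical of both sexes. The study's methods give 3 eyes per group for the 3 libraries, but not whether they came from separate animals, and why each library held both kinds of RNA was not tested. Hence n counts libraries, and p-values measure the spread between them, which may be in part technical.

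Type I interferons bind a receptor made of IFNAR1 and IFNAR2, whose kinases phosphorylate STAT proteins. A complex of STAT proteins with IRF9 then binds the interferon-stimulated response element (ISRE) in the promoters of target genes. The effectors encoded there hold back viruses by binding or cutting foreign RNA, blocking translation, tagging proteins with ISG15 or tethering virions at membranes, and several of them sense nucleic acids or dampen the response. In the retina microglia, Müller glia, endothelium and neurons can all express such genes.

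Promoter windows from 250 bases before to 50 bases after the start of transcription were taken from RefSeq (GRCm38.p6), in which 30 of the 40 genes had at least 1 window. The ISRE core was searched on both strands as GAAANNGAA, and the core of the gamma-activated site (GAS), an element of the interferon-gamma response, as TTCNNNGAA. The ISRE core was found in 21 of the 30 genes (70%), against 9.76% of the 27025 genes of that table. The GAS core was found in 7 of the 30 (23.3%), against 9.55% of all genes. Both cores were found in 5 of the 33 windows of these genes, and in 2 of them the matches overlapped.

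Windows of 4 genes are printed because the expression results turn on them: Oasl2, the gene that passed the test, Oas1a and Ifit1, with large differences that did not pass, and Gbp2, the gene whose libraries were all lower in OIR-CIH. They run 5′ to 3′ on the strand of the gene, and capitals mark the ISRE core on either strand. The windows are chr5:114896684-114896983 (plus strand) for Oasl2, chr5:120907476-120907775 (minus strand) for Oas1a, chr19:34640639-34640938 (plus strand) for Ifit1 and chr3:142620413-142620712 (plus strand) for Gbp2.
Oasl2: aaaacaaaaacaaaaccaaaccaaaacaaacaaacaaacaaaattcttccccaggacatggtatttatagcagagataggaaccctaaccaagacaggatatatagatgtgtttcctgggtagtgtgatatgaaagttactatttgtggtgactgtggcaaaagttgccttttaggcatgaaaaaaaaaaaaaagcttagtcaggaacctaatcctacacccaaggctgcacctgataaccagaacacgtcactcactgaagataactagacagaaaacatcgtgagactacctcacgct
Oas1a: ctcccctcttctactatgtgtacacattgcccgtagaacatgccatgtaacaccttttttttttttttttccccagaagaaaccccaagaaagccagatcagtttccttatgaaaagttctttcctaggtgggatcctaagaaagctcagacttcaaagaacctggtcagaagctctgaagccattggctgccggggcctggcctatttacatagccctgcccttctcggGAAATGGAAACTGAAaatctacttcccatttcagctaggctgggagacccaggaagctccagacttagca
Ifit1: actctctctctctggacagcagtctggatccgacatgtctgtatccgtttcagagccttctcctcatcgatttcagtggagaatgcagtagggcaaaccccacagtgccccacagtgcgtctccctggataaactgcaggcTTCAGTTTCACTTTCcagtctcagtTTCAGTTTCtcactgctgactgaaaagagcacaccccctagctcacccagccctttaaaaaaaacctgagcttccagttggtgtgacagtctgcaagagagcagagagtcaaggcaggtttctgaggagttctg
Gbp2: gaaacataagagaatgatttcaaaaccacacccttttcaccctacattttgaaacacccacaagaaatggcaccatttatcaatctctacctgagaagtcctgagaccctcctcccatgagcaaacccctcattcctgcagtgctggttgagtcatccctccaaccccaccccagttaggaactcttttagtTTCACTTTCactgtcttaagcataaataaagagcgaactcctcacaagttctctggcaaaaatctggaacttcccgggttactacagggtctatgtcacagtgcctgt
The Ifit1 window held 3 matches, whose first bases lay 109, 103 and 84 bases before the start, all on the opposite strand. In Oas1a 2 overlapping matches began 20 and 14 bases before the start. Gbp2 had 1 match 58 bases before the start, on the opposite strand. The Oasl2 window held none, which says only that these letters are absent from it. A match is a string of letters and not a measured binding site. Of the other genes described below, Ifit3, Ifit3b and Isg15 had 3 matches each, and Lgals3bp, Ifit2, Cmpk2, Xaf1, Herc6, Dtx3l, Ifi35 and Oasl1 had a window with none.

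Levels were compared between genes as CPM (the count over the library size in units of 1000000, scaled by trimmed means, TMM) per kb of exon. Ifitm3, a membrane protein that blocks virus fusion in endosomes, was highest with a mean of 13.3 CPM per kb over the 6 libraries. Stat2, a signal transducer of the type I response, followed with 8.10 and Lgals3bp, a secreted galectin-binding glycoprotein, with 7.76 CPM per kb. Ifit3 (5.66), Trim25 (5.13), Bst2 (4.74), Ifi27 (4.38) and Ifit2 (4.26 CPM per kb) came next. Neighbours in this order had overlapping libraries in 34 of 37 pairs, the exceptions being Ifitm3 above Stat2, Ifit2 above Ifit3b and Parp9 above Ddx58. Oas1a, Ifit3 and Ifit3b share much of their sequence with another gene, as given below, so their levels are uncertain. At the other end were Ifi44 (0.108), Oas3 (0.0704) and Oasl1 (0.0496 CPM per kb). Before division by length, 31 of the 38 genes had a mean of at least 1 CPM, and the raw count of a gene in a library ran from 1 to 1681.

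**Figure D1:**
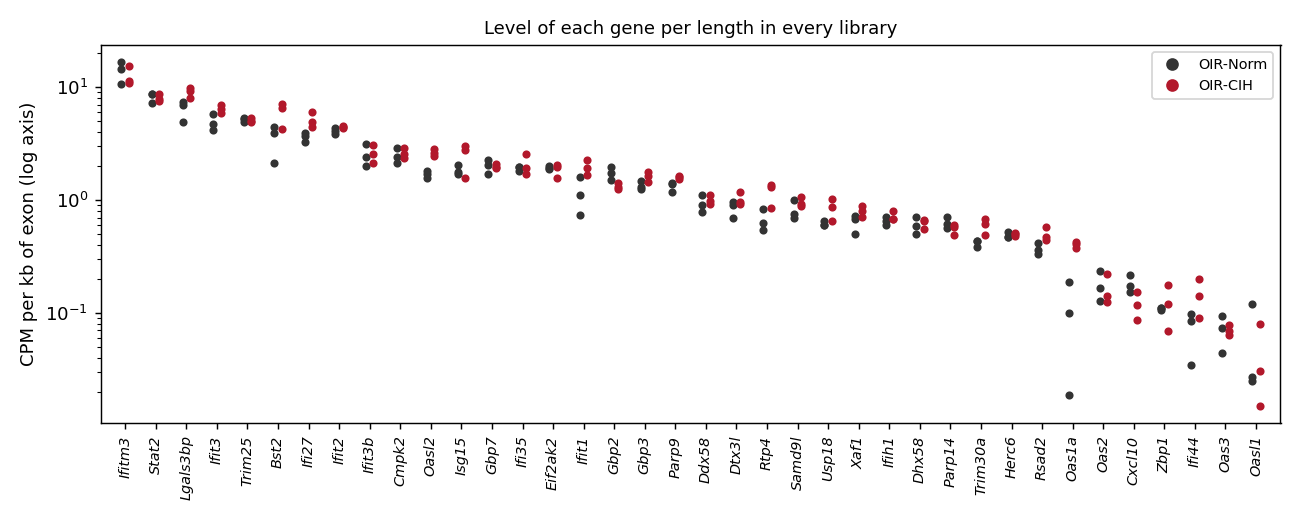
Level of the 38 interferon-stimulated genes in every library, as CPM per kb of exon on a log axis, ordered by the mean over the 6 libraries (black points, 3 OIR-Norm libraries, and red points, 3 OIR-CIH libraries). The genes run from Ifitm3 at a mean of 13.3 to Oasl1 at 0.0496 CPM per kb, and the groups stand clearly apart for Oasl2 and Oas1a, while those of most other genes overlap.

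A gene was called where the quasi-likelihood test of edgeR gave a Benjamini-Hochberg adjusted p under 0.05 over all 20021 genes and an absolute log2 fold change over 0.5. Of the 38 genes 1, Oasl2, was called higher in OIR-CIH and 0 were called lower, while 0.12% of all genes tested were called higher, 0.275% lower and 0.395% in either direction. DESeq2 called the same gene alone among the 38 and 0.674% of all genes in either direction. At an unadjusted p under 0.05, 10 of the 38 were higher and 1 was lower, against 6.31% and 6.79% of all genes. At an unadjusted p under 0.01, 6 of the 38 were higher and 0 were lower, against 1.72% and 2.15%. The 3 OIR-CIH libraries were all above the 3 OIR-Norm libraries in 10 genes (9.12% of all genes) and all below them in 1 gene (9.26% of all genes). The remaining 27 genes had overlapping groups. Fold changes were above 0 in 27 genes and below 0 in 11 (49.5% of all genes were above 0). The median log2 fold change was 0.14, against -0.0028 over all genes tested, and the range was -0.58 to 1.92. Leaving out OIR-Norm replicate 2 moved the median to 0.25.

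**Figure D2:**
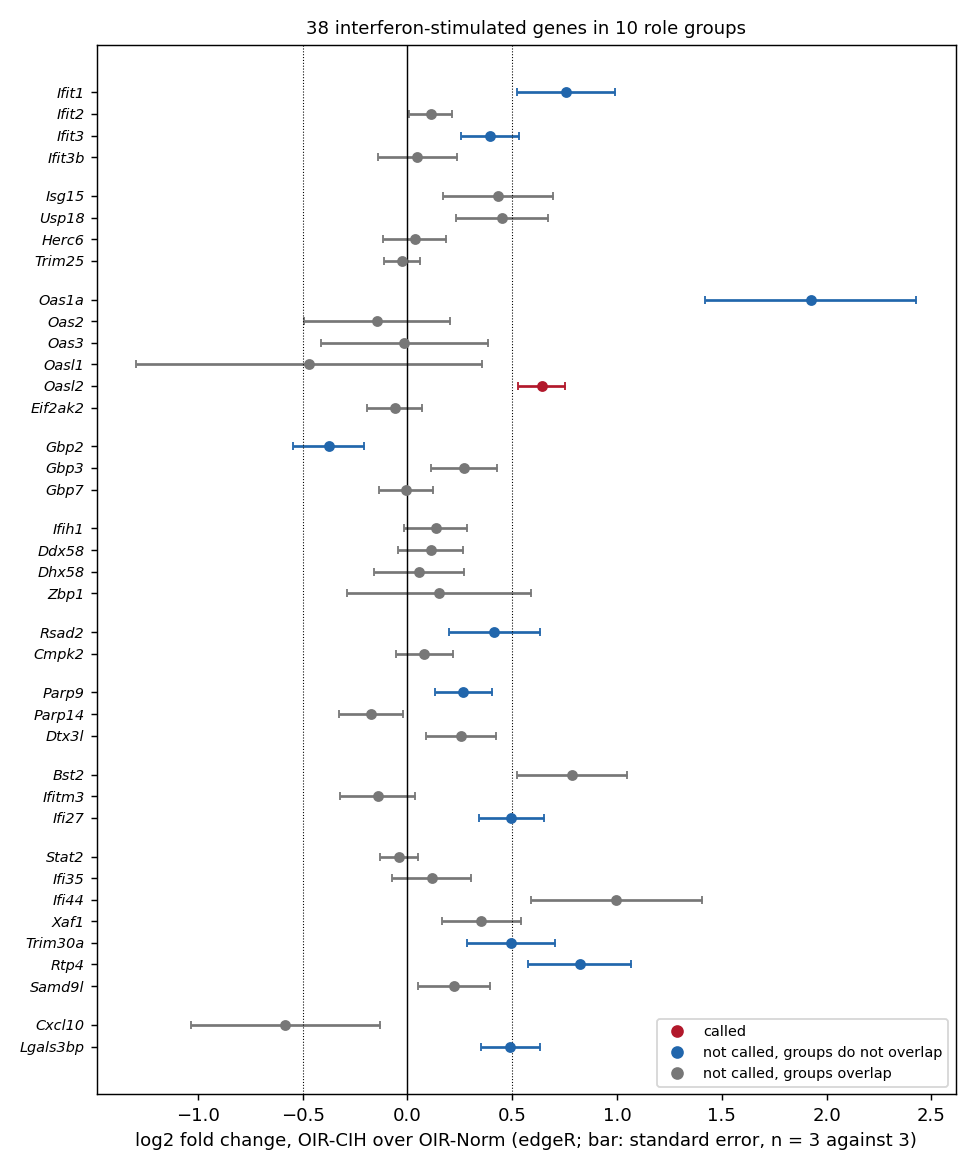
Log2 fold change of OIR-CIH over OIR-Norm for each of the 38 genes by role group, with its standard error from edgeR as bars (n = 3 against 3). Only Oasl2 (red) was called, 10 more genes (blue) had groups that did not overlap, and dotted lines mark a log2 fold change of -0.5 and 0.5.

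In the family of 2′-5′-oligoadenylate synthetases (OAS), which sense double-stranded RNA and switch on RNase L, the members differed in the sign of their fold changes. Oasl2, an OAS-like protein with ubiquitin-like domains, stood at 15.7, 17.96 and 16.7 CPM in OIR-CIH replicates 1 to 3 and at 11.5, 10.8 and 10.0 CPM in OIR-Norm replicates 1 to 3. The groups did not overlap, and the lowest OIR-CIH library was above the highest OIR-Norm library. The means were 16.8 ± 1.12 and 10.8 ± 0.750 CPM (SD, n = 3 each), and Oasl2 rose by a log2 fold change of 0.64 ± 0.11 (SE), or 1.56-fold, with an adjusted p of 0.0121 in edgeR. Adjusted p-values were 0.000104 with DESeq2 and 0.0286 with limma. The call was lost without OIR-CIH replicate 2 (edgeR adjusted p = 0.0703) and without OIR-CIH replicate 3 (edgeR adjusted p = 0.0535), while the log2 fold change stayed between 0.59 and 0.69 over the 6 fits that each left out 1 library.

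Oas1a, a catalytically active synthetase, had 0.706, 0.763 and 0.794 CPM in OIR-CIH and 0.357, 0.0351 and 0.189 CPM in OIR-Norm, from raw counts of 18, 22 and 30 against 11, 1 and 6. The groups were apart, and OIR-Norm replicate 2 was far below the rest with its single read. With a log2 fold change of 1.92 ± 0.51 (SE) the adjusted p in edgeR was 0.138. With limma on log2(CPM + 0.5) the difference was 0.88 with an adjusted p of 0.069. It passed in edgeR without OIR-Norm replicate 1 (2.67, edgeR adjusted p = 0.0494), and with no filter beyond a single count (edgeR adjusted p = 0.0196). Of the 50-base stretches of its exons 57.6% were identical to Oas1g. Reads there may not be assignable to 1 gene, so this value is uncertain.

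Oas2 (-0.15), Oas3 (-0.01) and Oasl1 (-0.47), which is known to repress translation of Irf7, had log2 fold changes below 0 with adjusted p of 0.853 or more in edgeR. Their groups overlapped. Eif2ak2, which encodes PKR, the kinase that stops translation on sensing double-stranded RNA, had a log2 fold change of -0.06 and an adjusted p of 0.881 in edgeR.

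IFIT proteins bind viral RNA and hold back its translation, and their 4 genes lie together on chromosome 19. Their fold changes were all above 0 and none passed. Ifit1 stood at 4.40, 6.07 and 5.13 CPM in OIR-CIH and at 4.28, 1.96 and 2.95 CPM in OIR-Norm. The groups were just apart, with OIR-CIH replicate 1 and OIR-Norm replicate 1 close together. The log2 fold change was 0.76 ± 0.23 (SE) with an adjusted p of 0.216 in edgeR, and it passed without OIR-Norm replicate 1 (1.07, edgeR adjusted p = 0.0383).

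Ifit3 had 10.3, 12.1 and 11.2 CPM in OIR-CIH and 10.1, 8.21 and 7.29 CPM in OIR-Norm. These groups were also just apart, at a log2 fold change of 0.39 and an adjusted p of 0.266 in edgeR. Its near copy Ifit3b had 5.14, 4.26 and 6.14 CPM against 6.23, 4.84 and 4.02 CPM, with overlapping groups and a log2 fold change of 0.05. The pair shared 51.2% of the 50-base stretches of Ifit3 and 45.0% of those of Ifit3b. Reads there may not be assignable to 1 gene, so the values of both are uncertain. Ifit2 stood at a log2 fold change of 0.11 (edgeR adjusted p = 0.688).

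ISG15 is a ubiquitin-like protein that is attached to newly made proteins by HERC-type ligases and removed by USP18. Isg15 had 1.18, 2.29 and 2.12 CPM in OIR-CIH and 1.30, 1.33 and 1.54 CPM in OIR-Norm, so that OIR-CIH replicates 2 and 3 were above all OIR-Norm libraries and OIR-CIH replicate 1 below them. Its log2 fold change was 0.43 (edgeR adjusted p = 0.510). Usp18, which also blocks IFNAR2 signalling, showed the same order of OIR-CIH libraries at 1.81, 2.84 and 2.41 CPM, against 1.69, 1.82 and 1.67 CPM in OIR-Norm. Its groups overlapped by a single library, at a log2 fold change of 0.45 (edgeR adjusted p = 0.397). Herc6, the main ISG15 ligase in mouse (0.03), and Trim25, the ligase that activates RIG-I (-0.03), were near 0 on the log2 scale.

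**Figure D3:**
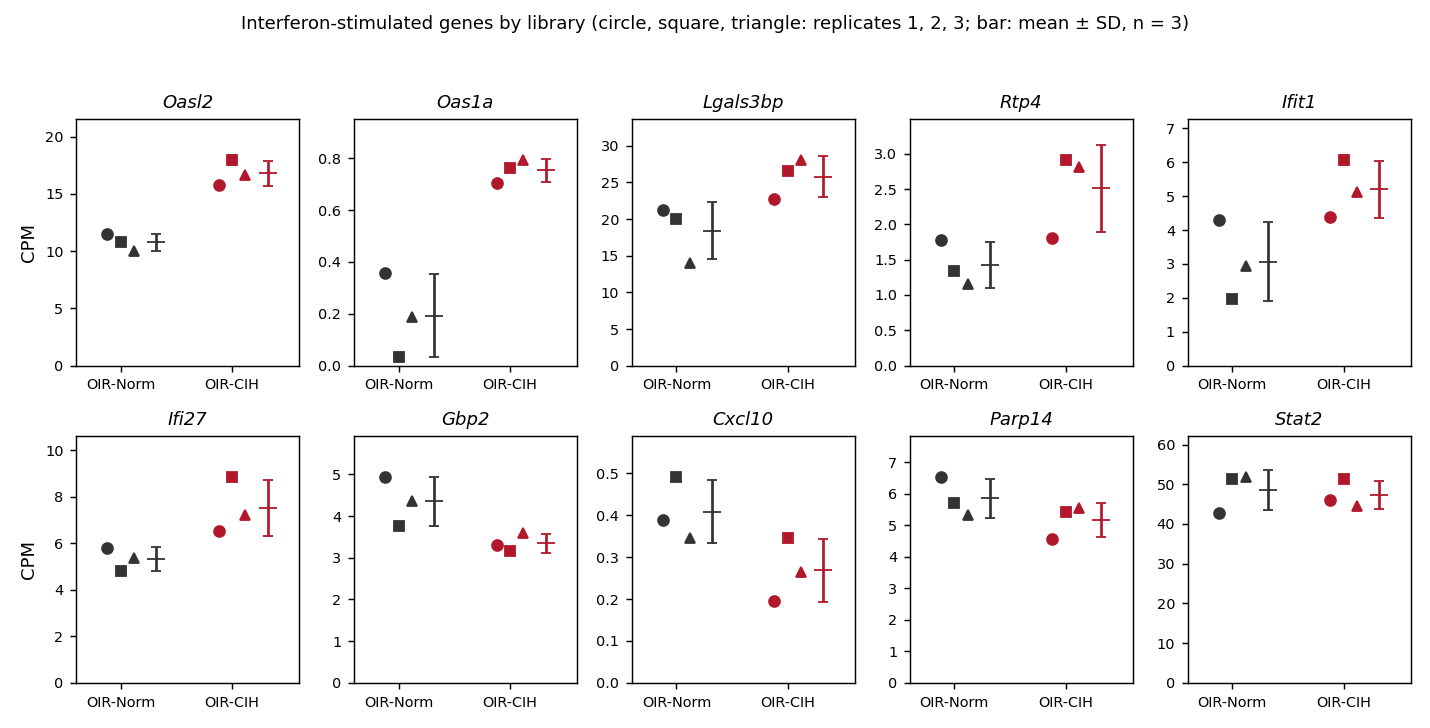
CPM in each library for the 10 genes given in full (circle, square and triangle, replicates 1, 2 and 3, and bars, mean ± SD, n = 3 per group). Oasl2 shows the widest gap relative to its spread, with 15.7 CPM or more in OIR-CIH and 11.5 CPM or less in OIR-Norm, while Ifit1 and Rtp4 are apart by narrow margins and Stat2 overlaps.

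Among the guanylate-binding proteins, interferon-induced GTPases that coat vacuoles and bacteria, Gbp2 was the gene whose libraries were all lower in OIR-CIH. It stood at 3.30, 3.16 and 3.60 CPM in OIR-CIH and at 4.93, 3.75 and 4.37 CPM in OIR-Norm. The highest OIR-CIH library lay just below the lowest OIR-Norm library. The log2 fold change was -0.38 ± 0.17 (SE) with an unadjusted p of 0.0427 and an adjusted p of 0.363 in edgeR, which did not pass. Gbp3 (0.27) and Gbp7 (-0.0089) had overlapping groups.

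Sensors of viral nucleic acid differed little. The log2 fold change was 0.14 for Ifih1, which encodes MDA5, 0.11 for Ddx58, which encodes RIG-I, 0.05 for their regulator Dhx58 and 0.15 for Zbp1, which senses left-handed nucleic acid. The groups of all 4 overlapped, and the lowest adjusted p among them was 0.745 in edgeR. Rsad2, which encodes viperin, an enzyme that makes a chain-terminating nucleotide, had 2.04, 2.496 and 1.93 CPM in OIR-CIH and 1.82, 1.58 and 1.45 CPM in OIR-Norm. The groups were apart by a narrow margin, with a log2 fold change of 0.41 (edgeR adjusted p = 0.441). Its neighbour Cmpk2, a mitochondrial nucleotide kinase, stood at 0.08.

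Parp9 and Dtx3l encode partners in an ADP-ribosylation and ubiquitin ligase complex and lie head to head on chromosome 16. Parp9 had 7.53, 7.87 and 7.91 CPM in OIR-CIH and 6.88, 6.77 and 5.75 CPM in OIR-Norm, with no overlap, a log2 fold change of 0.27 and an adjusted p of 0.425 in edgeR. Dtx3l was at 0.26 with overlapping groups. The exons of the pair overlap by 458 bases on opposite strands, and since the strand setting of the counting is not given, reads there cannot be assigned with certainty. Parp14, an ADP-ribosyltransferase, had 4.55, 5.41 and 5.56 CPM in OIR-CIH and 6.52, 5.72 and 5.31 CPM in OIR-Norm. Its groups overlapped, with a log2 fold change of -0.17 ± 0.15 (SE) and an adjusted p of 0.675 in edgeR.

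Of the genes for membrane-bound restriction factors, Ifi27, which encodes a small hydrophobic protein, had 6.51, 8.84 and 7.20 CPM in OIR-CIH and 5.81, 4.81 and 5.37 CPM in OIR-Norm. All OIR-CIH libraries were above all OIR-Norm libraries. The log2 fold change was 0.50 ± 0.15 (SE), with an adjusted p of 0.216 in edgeR. Bst2, whose product tetherin holds budding virions at the cell surface, stood at 3.85, 5.96 and 6.40 CPM in OIR-CIH and at 3.54, 4.03 and 1.92 CPM in OIR-Norm. OIR-CIH replicate 1 was below OIR-Norm replicate 2, so the groups overlapped, and the log2 fold change of 0.79 had an adjusted p of 0.260 in edgeR. Ifitm3, highest per length, was at -0.14 on the log2 scale (edgeR adjusted p = 0.778).

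Among the other intracellular effectors Rtp4, an interferon-induced chaperone and negative regulator of the response, had 1.81, 2.91 and 2.81 CPM in OIR-CIH and 1.79, 1.33 and 1.16 CPM in OIR-Norm. OIR-CIH replicate 1 was only just above OIR-Norm replicate 1. The log2 fold change was 0.82 ± 0.25 (SE), with an adjusted p of 0.190 in edgeR, and 11.6% of the 50-base stretches of its exons were shared with another gene.

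Ifi44, a gene of unclear molecular role that antiviral responses induce, had 0.549, 0.867 and 1.22 CPM in OIR-CIH and 0.519, 0.210 and 0.597 CPM in OIR-Norm. Its groups overlapped, and the log2 fold change of 0.997 had an adjusted p of 0.321 in edgeR. Trim30a, which tempers NF-κB signalling, stood at 0.49 on the log2 scale (edgeR adjusted p = 0.342) with groups apart at 2.79, 2.53 and 2.01 CPM against 1.59, 1.79 and 1.79 CPM. Xaf1, a pro-apoptotic factor, was at 0.35, Samd9l, a translation-restricting antiviral protein, at 0.22 and Ifi35 at 0.12, all with overlapping groups.

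Stat2 had the highest count of the list, 8769 over the 6 libraries, and stood at 46.1, 51.4 and 44.5 CPM in OIR-CIH and at 42.9, 51.2 and 51.8 CPM in OIR-Norm. The groups overlapped fully, at a log2 fold change of -0.04 ± 0.09 (SE) and an adjusted p of 0.888 in edgeR.

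The genes of secreted products had fold changes of opposite sign, and neither passed. Lgals3bp had 22.7, 26.6 and 28.1 CPM in OIR-CIH and 21.2, 20 and 13.95 CPM in OIR-Norm. The groups were apart, and OIR-Norm replicate 3 was the lowest. The log2 fold change was 0.49 ± 0.14 (SE) with an adjusted p of 0.189 in edgeR. With DESeq2 the adjusted p was 0.0488 at a log2 fold change under the minimum of 0.5. Cxcl10, the chemokine that draws CXCR3-bearing T cells, was sparse, with raw counts of 5, 10 and 10 in OIR-CIH and 12, 14 and 11 in OIR-Norm, or 0.196, 0.347 and 0.265 CPM against 0.390, 0.491 and 0.346 CPM. The groups met at 1 library, and the log2 fold change of -0.58 ± 0.45 (SE) had an adjusted p of 0.625 in edgeR.

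Libraries did not contribute alike. The median deviation of the 38 genes from their own mean over the 6 libraries, on the log2(CPM + 0.5) scale, was 0.017, 0.103 and 0.114 in OIR-CIH replicates 1 to 3 and -0.0471, -0.0535 and -0.207 in OIR-Norm replicates 1 to 3. OIR-Norm replicate 3 was the lowest library in 15 of the 38 genes, and OIR-CIH replicate 2 was the highest in 13. The medians of all tested genes lay between -0.00361 and 0.00387 in these libraries. Without OIR-Norm replicate 3 the median log2 fold change of the list was 0.19, and Oasl2 was the 1 gene called. The summed level of the list was 267.8, 298.0 and 291.1 CPM in OIR-CIH and 262.9, 258.4 and 245.3 CPM in OIR-Norm, with no overlap. Its means were 285.6 ± 15.8 and 255.5 ± 9.14 CPM (SD, n = 3), and the smallest p that an exact permutation test allows with 3 against 3 is 0.1. Genes of high level weigh most in this sum. Lgals3bp (means of 25.8 CPM in OIR-CIH and 18.4 CPM in OIR-Norm) and Oasl2 (16.8 and 10.8 CPM) were apart, whereas Stat2 (47.3 and 48.6 CPM) overlapped. The gap between the sums may therefore rest on few genes, and 27 of the 38 had overlapping groups.

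**Figure D4:**
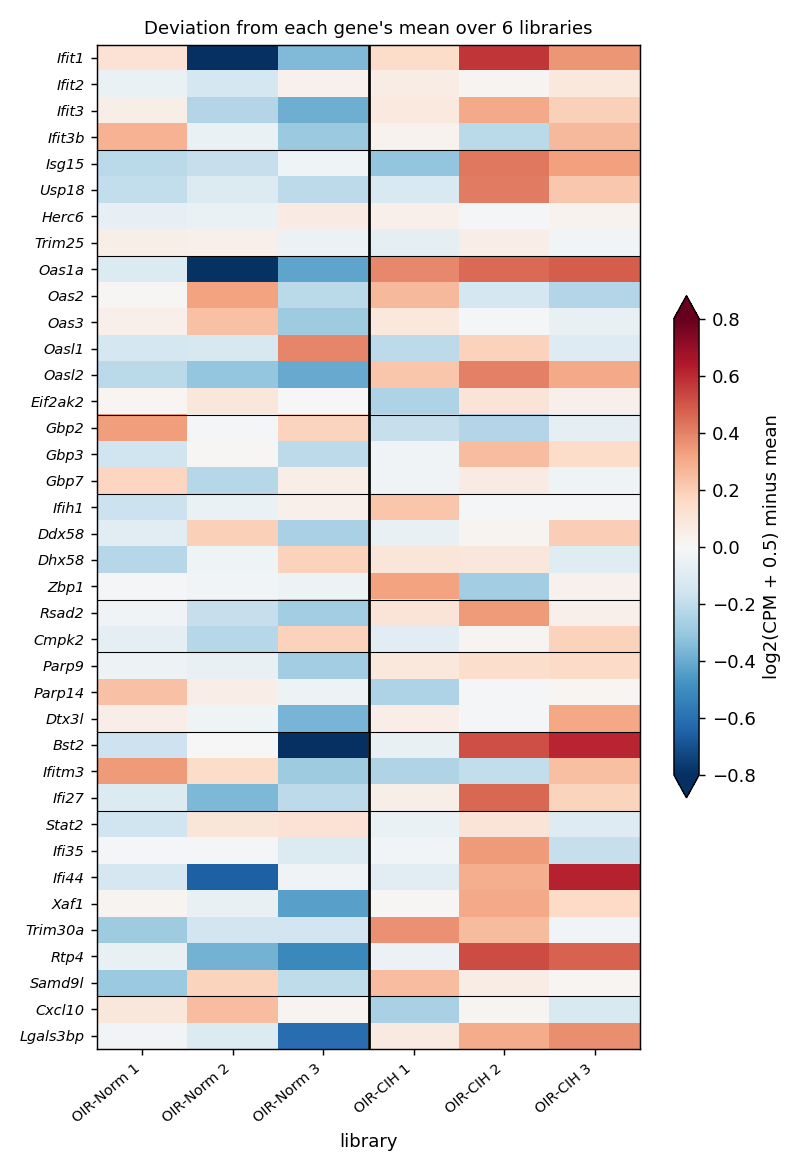
Deviation of log2(CPM + 0.5) from each gene's mean over the 6 libraries, with genes as rows in role order and libraries as columns (red above, blue below, colours saturated at -0.8 and 0.8). OIR-Norm replicate 3 is lowest for 15 genes and OIR-CIH replicate 2 highest for 13, while Gbp2 runs the other way.

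The other genes of the pathway were read from lists that do not overlap with the 38. Interferon ligands were nearly undetected: 11 of 13 listed genes, Ifnb1 among them, had 0 counts in all libraries, and Ifnab and Ifng had 1 count each. A count of 0 allows up to 3 counts, or 0.0164 CPM over all 6 libraries, for counting error only. The remaining lists held 90 tested genes, of which 0 were called by edgeR or by DESeq2 as run here, against 0.395% and 0.674% of all genes. At an unadjusted p under 0.05, 2 were higher and 10 (11.1%) lower, against 6.31% and 6.79% of all genes.

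Among the 13 genes for receptors and JAK-STAT signalling, with a median log2 fold change of -0.0024, Ifnar1, a chain of the type I receptor, stood at 58.6, 57.8 and 57.9 CPM in OIR-CIH and at 60.6, 61.2 and 62.4 CPM in OIR-Norm. The groups were apart and close, at a log2 fold change of -0.08 (edgeR adjusted p = 0.672). Ifnar2, the other chain, was at -0.40 (edgeR adjusted p = 0.342) and Irf9 at 0.00096 (edgeR adjusted p = 0.998).

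Among 13 genes of sensing upstream of interferon, with a median of -0.056, Irf7, the factor that amplifies interferon transcription, had 47.7, 49.2 and 43.9 CPM in OIR-CIH and 36.3, 26.8 and 36.5 CPM in OIR-Norm. Its groups were well apart, and the log2 fold change of 0.50 ± 0.11 (SE) had an adjusted p of 0.0588 in edgeR, which did not pass. With DESeq2 the adjusted p was 0.00475 at a log2 fold change of 0.4995, just under the minimum of 0.5. It passed in edgeR without OIR-Norm replicate 1 (adjusted p = 0.0481) and without OIR-Norm replicate 3 (adjusted p = 0.0442). The study's own list of genes higher in OIR-CIH, made with DESeq and the same thresholds, holds Irf7, just over that minimum, and also Oasl2. The 48 tested genes of a wider list of type I interferon-induced genes had 20 fold changes above 0 and 28 below, with a median of -0.076. Ddx60 (0.68, edgeR adjusted p = 0.181) and Helz2 (-0.67, edgeR adjusted p = 0.122), both helicases, were the members with an unadjusted p under 0.01.

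For genes that interferon-gamma induces, the median log2 fold change was -0.31 over 16 tested genes, with 11 below 0. Cd74, the MHC class II invariant chain, was at -1.01 (edgeR adjusted p = 0.189) and Irf1 at -0.48 (edgeR adjusted p = 0.245). The median of this list was -0.08 with the stricter low-count filter of edgeR, -0.11 with limma and -0.07 without OIR-Norm replicate 1.

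**Figure D5:**
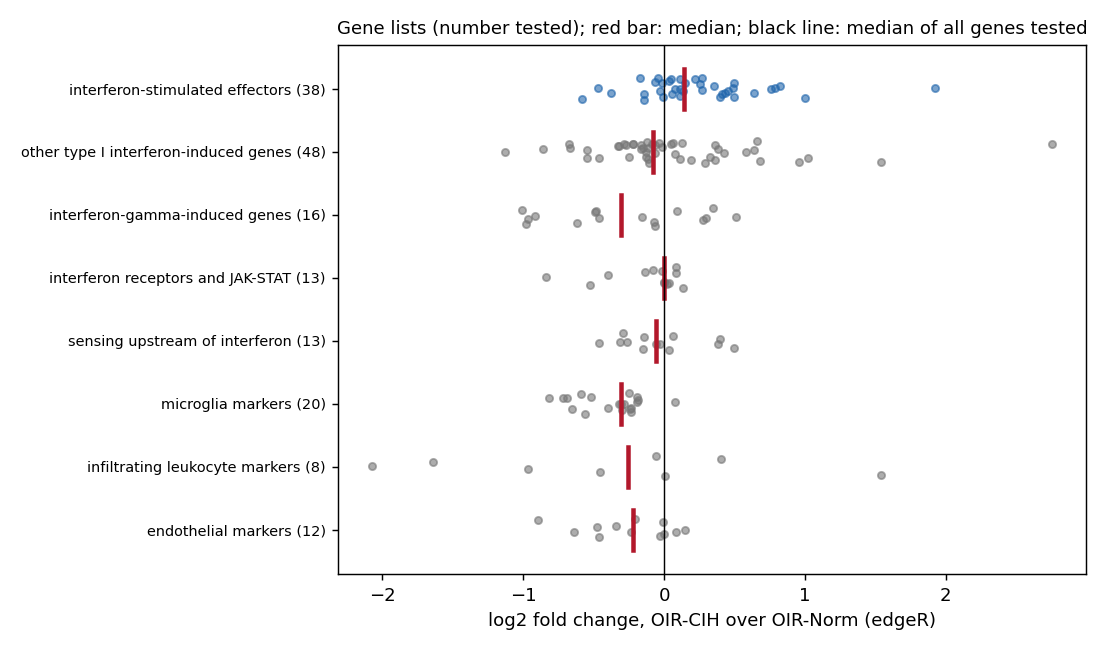
Log2 fold change of OIR-CIH over OIR-Norm from edgeR for every tested gene of each list (points), with the number tested in brackets, the list median as a red bar and the median of all genes tested as a black line. The interferon-stimulated effectors have a median of 0.14, above that of the other lists drawn, and 19 of 20 microglia markers lie below 0. Retina markers, which are not drawn, have a median of 0.12.

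Cell type markers were read beside these values. Of 20 microglia markers 2 fell, Mpeg1 (-0.72, edgeR adjusted p = 0.00471) and Fcrls (-0.69, edgeR adjusted p = 0.0239), against 0.275% of all genes called lower. The call of Fcrls was lost with limma (adjusted p = 0.0549) and in 5 of the 6 fits that left out 1 library, all but the fit without OIR-Norm replicate 2 (edgeR adjusted p = 0.0334 there, up to 0.0965 in the others), and DESeq2 called 3 markers lower. Fold changes were below 0 for 19 of the 20 (50.5% of all genes), and the summed level was 179.3 to 199.7 CPM in OIR-CIH and 221.5 to 247.1 CPM in OIR-Norm, with no overlap. In bulk retina fewer cells of a type and less RNA per cell cannot be told apart. Gfap, an astrocyte and reactive Müller glia gene, fell by 1.15 on the log2 scale (edgeR adjusted p = 9.89e-06). It was the 1 called of 10 Müller glia and astrocyte markers, against 0.395% of all genes in either direction. Of those 10, 6 had fold changes above 0 and 4 below (49.5% of all genes were above 0), with a median log2 fold change of 0.057. The 8 tested of 15 leukocyte markers summed to 4.611 to 6.867 CPM in OIR-CIH and 4.398 to 5.928 CPM in OIR-Norm, overlapping. Cd8a, a T cell gene, held 588 counts over the 6 libraries, S100a9, a neutrophil gene, held 32, and Cd3e and Ly6g, of the same cell types, had 0. Cd8a was the largest part of the sum in every library, with 2.982 to 4.905 CPM in OIR-CIH and 2.105 to 3.538 CPM in OIR-Norm. Log2 fold changes of the 8 ran from -2.07 to 1.54, with 3 above 0 and 5 below (49.5% of all genes were above 0), and 0 were called. Both ends of that range rest on few reads, Ccr2 with 31 counts and Plac8 with 20 over the 6 libraries. Plac8 also stands in the wider list of type I interferon-induced genes. The dendritic cell and macrophage gene Itgax was the 1 of the 8 apart, against 9.26% of all genes apart and lower. It was lower in OIR-CIH, at a log2 fold change of -1.64 (edgeR adjusted p = 0.122). Endothelial markers summed to 298.2 to 344.3 CPM in OIR-CIH and 299.5 to 402.0 CPM in OIR-Norm and blood markers to 56.31 to 75.34 against 52.05 to 114.6 CPM, both overlapping. Kdr, at 164.9 to 178.9 CPM, was the largest part of the endothelial sum in every library. The 402.0 CPM was OIR-Norm replicate 2, which was highest for Pecam1 (24.4 CPM) and Vwf (22.9 CPM), but not for Kdr, Egfl7 or Slco1a4. Pigment epithelium and lens markers together gave 722.6 to 884.5 against 525.0 to 766.7 CPM. Summed apart, a split made after the values were seen, the 5 pigment epithelium markers were at 872.2, 715.1 and 715.2 CPM in OIR-CIH and at 632.0, 530.3 and 513.8 CPM in OIR-Norm, with no overlap. Of these 5, 3 were apart and higher in OIR-CIH (Rlbp1, Lrat and Ttr), against 9.12% of all genes. Rpe65 (0.65) and Best1 (-0.24 on the log2 scale) had overlapping groups, and 0 of the 5 were called by edgeR, against 0.395% of all genes. Most of the sum was Rlbp1, which also stands in the lists of retina markers and of Müller glia and astrocyte markers. Rlbp1 was at 555.5, 491.5 and 511.2 CPM in OIR-CIH and at 437.2, 403.3 and 389.2 CPM in OIR-Norm. The 3 lens markers were at 12.24, 38.24 and 7.383 CPM in OIR-CIH and at 13.86, 236.4 and 11.21 CPM in OIR-Norm, so that OIR-Norm replicate 2 stood apart from the other libraries. Without that library Oasl2 was still the 1 interferon-stimulated gene called. The part of these cell types in the values of the interferon-stimulated genes was not tested.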

How the data were processed

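Whole-retina RNA of 3 OIR-CIH and 3 OIR-Norm libraries was sequenced from stranded mRNA libraries. The authors aligned reads with STAR 2.7.9a, with gene counting against Ensembl 105, and deposited whole-number counts per gene without normalization. Which strand column was kept is not stated. The submitters' processing notes name GRCm38, an earlier build than that of Ensembl 105, so the annotation behind the counts is uncertain. The exon lengths and shared sequence used here may differ from it. The authors removed genes below 10 counts in total and used DESeq.

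Genes with 10 or more counts over the 6 libraries were fitted with edgeR 4.0.16 (TMM, robust quasi-likelihood test, all 6 libraries, no covariate) in R 4.3.3, with Benjamini-Hochberg adjustment over 20021 genes and a minimum absolute log2 fold change of 0.5. All tests were two-sided. SE is the log2 fold change divided by the square root of the quasi-likelihood F. Symbols were matched by gene ID (32158 of 32285), exon lengths came from GENCODE M21, and shared sequence was counted as 50-base stretches of exon. The rule for genes given in full (test, SE and plot) took those called, those with an unadjusted p under 0.01, the 3 lower in OIR-CIH with the lowest p and the one with the highest count. From the other interferon lists, genes called or with an unadjusted p under 0.01 (at most 5 a list) were named, with Irf9, Ifnar1 and Ifnar2. A further gene that the rule named by its symbol is not reported here. Ifnb1, Ifnab, Ifng, Cd3e, Ly6g, Cd8a, S100a9, Ccr2, Plac8, Itgax, Rlbp1, Lrat, Ttr, Rpe65, Best1, Kdr, Pecam1, Vwf, Egfl7 and Slco1a4 were named after the values were seen. Library values of 9 more members (Ifit3, Ifit3b, Isg15, Usp18, Rsad2, Parp9, Bst2, Ifi44 and Trim30a) were also printed after the values were seen. Members and lists were chosen with earlier results of these data known. Retina markers (14) and Müller glia and astrocyte markers (10) had median log2 fold changes of 0.12 (0.047 to 0.17 on leaving out 1 library) and 0.057 (-0.023, without OIR-CIH replicate 3, to 0.12).

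Alternatives were DESeq2 1.42.0, limma 3.58.1 on log2(CPM + 0.5), other scalings and low-count filters, no minimum fold change, a replicate block and leaving out each library. The medians of the other lists under these alternatives were added after seeing the data. The fit was also run on simulated counts, drawn independently for each gene. Such counts hold no differences that many genes of a library share, so that run cannot test the calls against them. Depth was 26289905 to 38010151 counts per library, and intervals of a count of 0 cover counting error only.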

Additional observations from a re-analysis of the deposited data

How the results depend on the processing

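Oasl2 was the 1 gene of the 38 called with edgeR, DESeq2 (135 genes called in all, 101 of them lower), limma, median-of-ratios scaling, the edgeR filterByExpr filter, the replicate block and no minimum fold change. With every gene of at least 1 count tested, 148 genes were called, 40 higher and 108 lower, and 2 were of the list, Oasl2 and Oas1a. Leaving out 1 library gave 47 genes called when OIR-CIH replicate 1 was dropped, up to 133 when OIR-Norm replicate 3 was dropped, with 14 to 44 higher (44 without OIR-Norm replicate 1) and 33 to 113 lower. It gave 0 (without OIR-CIH replicate 2 or 3) to 3 genes of the list (Ifit1, Oas1a and Oasl2, without OIR-Norm replicate 1), and a median log2 fold change of the list from 0.14 to 0.25. Same-numbered libraries had deviations correlated at 0.162, 0.143 and -0.238, and unlike-numbered libraries at -0.404 to 0.224. With 3 libraries a group these values cannot decide whether the numbers pair the libraries. The replicate block gave 92 genes called against 79 without it.

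Of the 38 genes 26 kept the sign of their log2 fold change in every alternative that tested them. The sign turned for 12, none of them called: with limma for Oas3 (0.0070) and Gbp7 (0.0015), with the replicate block for Oas3 (0.027), and on leaving out 1 library for Ifit3b (-0.10 to 0.23), Oas2 (-0.42 to 0.11), Oas3 (-0.27 to 0.24), Oasl1 (-1.23 to 0.66), Eif2ak2 (-0.13 to 0.036), Gbp7 (-0.12 to 0.079), Dhx58 (-0.070 to 0.20), Zbp1 (-0.18 to 0.42), Cmpk2 (-0.012 to 0.21), Ifitm3 (-0.33 to 0.0069), Stat2 (-0.13 to 0.0069) and Ifi35 (-0.071 to 0.24). Leaving out 1 library moved 13 more genes by over 1.5 times without turning their sign, among them Isg15 (0.27 without OIR-CIH replicate 2, 0.66 without OIR-CIH replicate 1), Usp18 (0.30 without OIR-CIH replicate 2), Bst2 (0.52), Lgals3bp (0.32), Xaf1 (0.20) and Dtx3l (0.12, all 4 without OIR-Norm replicate 3), Samd9l (0.11 without OIR-Norm replicate 1) and Parp14 (-0.093 without OIR-Norm replicate 1). With limma, Oas1a (0.88), Ifi44 (0.54) and Cxcl10 (-0.24) were smaller by over 1.5 times. The cause was not tested. With 3 libraries a group and raw counts down to 1, differences in Oas1a, Oasl1, Cxcl10 and Zbp1 rest on few reads.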
